A study of Xenopus tropicalis with 18 samples.

Results

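The genes described here are 150 genes whose RNA was high in the early hypochord of the frog Xenopus tropicalis and lower in the late hypochord, out of 19921 genes listed. They were selected on measured values, in CPM, a gene's counts divided by the total counts of its library and scaled to the same total in each. The lower of the stage 56 and stage 58 hypochord values had to be at least 8 CPM and above the highest of the 4 hypochord libraries of stages 61 and 65. The coccyx was not to show the same order of stages, and the CPM ranges of the tissues at stages 61 and 65 had to overlap. After the last 37 genes of the tables and then the 100 genes of highest mean CPM were left out, 19784 genes remained. Among them, 619 met the conditions on the hypochord. Of the 619, 101 were dropped because their coccyx showed the same order, and 35 because the late ranges of the tissues lay apart. The 150 members are those of the remaining 483 genes with the largest difference in mean log2(CPM + 1) between late and early hypochord, and they are ranked by it.

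The study measured RNA in hypochord and coccyx of wild-type (WT) tadpoles, and WT was the genotype of every library. Early here means stages 56 and 58, with 1 library per tissue and stage. Late means stages 61 and 65, with 2 libraries per tissue and stage. In both tissues the early library was replicate 1 at stage 56 and replicate 2 at stage 58. A difference of stage and one of replicate number therefore cannot be told apart between stages 56 and 58. The tissues were frozen, cut out by laser capture microdissection, and their RNA was turned into cDNA and amplified by PCR. The labels do not say whether the replicates came from separate animals, nor whether hypochord and coccyx came from the same ones, so a p-value speaks only of the variation among these libraries, part or all of which can be technical.

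The urostyle is the rod of bone behind the last free vertebrae of frogs. It forms during metamorphosis from the coccyx, which derives from vertebral elements on the dorsal side, and the hypochord, a skeletal rod below the notochord that first forms as cartilage and then ossifies. Metamorphosis is driven by thyroid hormone, and the tadpole tail, with its notochord and muscle, is lost in the same period. The identifiers of the genes could not be paired with gene names, so neither the roles of the members nor the marker genes of the labelled tissues can be given here, and the members are called by their rank.

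The 12 libraries held 1918822 to 7271829 counts, and a floor of 3 counts corresponded to 0.413 to 1.56 CPM. The early hypochord libraries stood apart in the number of genes with at least 1 count. In hypochord it was 7376 at stage 56, 7508 at stage 58 and 11003 to 11644 in the 4 libraries of stages 61 and 65, and it was 13246 to 13919 in the 6 coccyx libraries. Each result on early hypochord below rests on these 2 libraries, and the part of this difference in the members' values was not tested. In such bulk samples, fewer cells of a type and less RNA per cell cannot be told apart.

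All 150 members were at least 2-fold higher in mean CPM in early than in late hypochord. The selection fixed the direction and ranked members by the size of a difference in logarithms, but it set no 2-fold limit. Mean early hypochord CPM was at least 4 times the late mean in 116 members, at least 8 times in 28 and at least 16 times in 9. The median late minus early difference in mean log2(CPM + 1) was -2.28, with a range from -4.98 to -1.86. It was -0.30 over the 3177 genes of at least 8 CPM in both early hypochord libraries. Groups that do not overlap, with late hypochord lower, were found in 5.70% of the 11729 genes tested across all 12 libraries and in all members by choice, from which nothing is read.

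The limit of the list cut through a continuous range. The member ranked 149 had a late minus early difference of -1.87, with mean CPM of 5.82 in late and 20.6 in early hypochord. The member ranked 150 had -1.86, with 58.0 in late and 205 in early hypochord. Just outside, the next gene had -1.86, with 5.53 CPM in late and 22.9 in early hypochord, and the one after it -1.85, with 20.6 in late and 77.0 in early hypochord. The lowest early hypochord value of any member was 8.31 CPM. The lower early value was 1.02 to 51.6 times the highest late value, with a median of 2.13, and the ratio was under 1.5 in 30 members, so that for these the gap between early and late libraries was small.

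**Figure D1:**
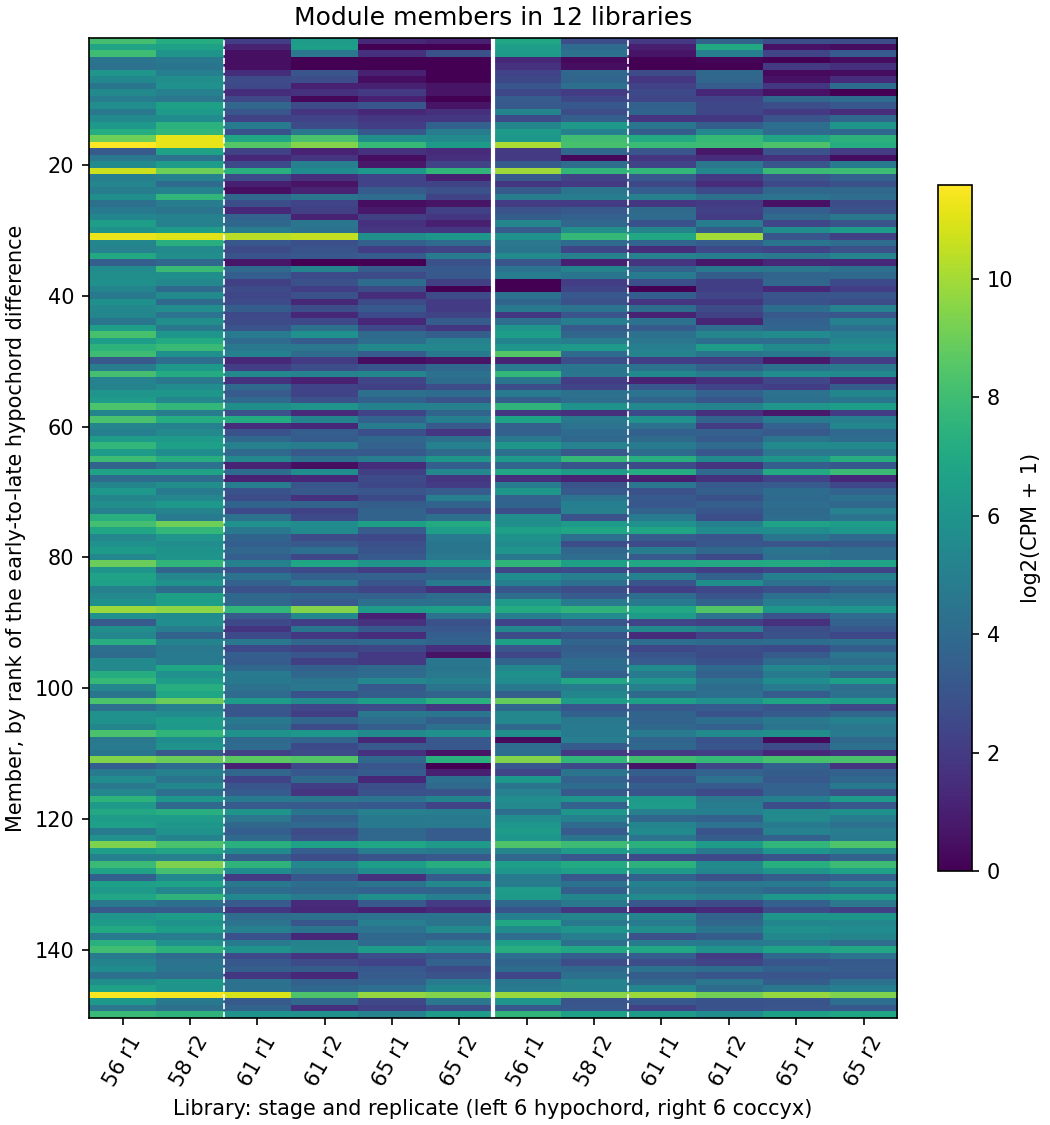
Each line is 1 of the 150 members, ordered by rank from the largest difference at the top, and each column 1 library, with the 6 hypochord libraries left and the 6 coccyx libraries right. Colour gives log2(CPM + 1). The dashed lines part early from late stages, and the 2 early hypochord columns are brighter than the 4 late ones in every line, as the selection required.

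By library, the median CPM of the members in hypochord was 53.4 at stage 56 and 52.3 at stage 58. It was 10.4 and 7.94 in replicates 1 and 2 of stage 61, and 8.02 and 11.2 in replicates 1 and 2 of stage 65. With scaling by total counts, the late hypochord libraries were thus close to each other in median. Those of stage 65 lay within the range of those of stage 61 or slightly above it. In coccyx the median was 25.6 CPM at stage 56 and 16.5 at stage 58, then 13.4 and 10.4 at stage 61 and 14.1 and 17.0 at stage 65. Coccyx therefore had 1 library, stage 56, above the others, while stage 58 lay within the range of stages 61 and 65. TMM factors, a scaling by the bulk of genes, differed among the late hypochord libraries. They were 1.01 and 0.596 at stage 61 and 0.920 and 1.30 at stage 65. Medians with these factors were not computed, so the orders of stages given here hold for scaling by total counts alone.

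The members took 2.44% of all counts of the stage 56 hypochord and 2.24% of those at stage 58. They took 0.697% and 0.607% in replicates 1 and 2 at stage 61, and 0.328% and 0.398% at stage 65. Unlike the median CPM without TMM factors, this share was lower in both stage 65 hypochord libraries than in both stage 61 ones. In coccyx it was 1.03% at stage 56 and 0.497% to 0.595% in the 5 other libraries. The 95% Wilson intervals of these shares reached at most 0.0130 percentage points to either side. They cover counting error only, since PCR copies without molecular identifiers are not independent molecules. The share is set by few genes, since the 10 members with the most counts in a library held 43.7% to 70.6% of the members' counts in it.

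**Figure D2:**
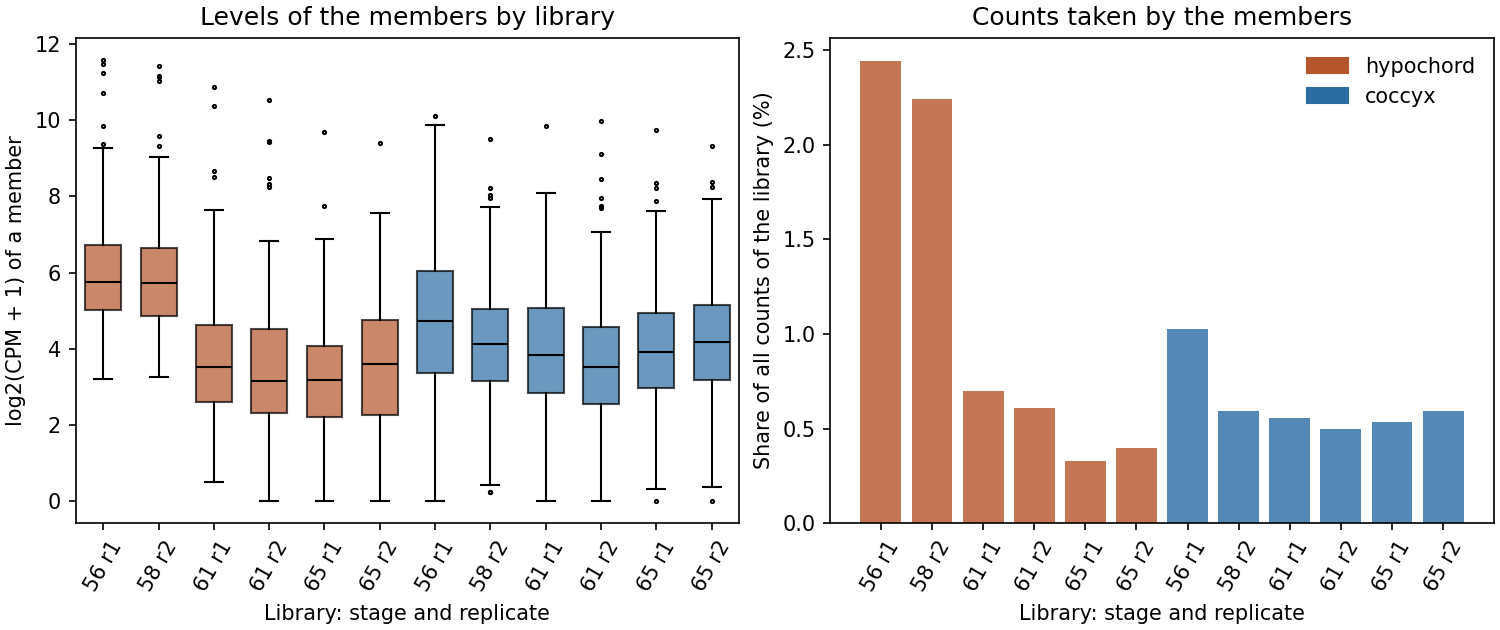
Left, log2(CPM + 1) of the 150 members in each library, with boxes for the quartiles, a line for the median and whiskers to 1.5 times the box height. Right, the percentage of each library's counts that fell on the members. Hypochord libraries are orange and coccyx libraries blue, and both panels show the 2 early hypochord libraries above all others, with the stage 56 coccyx next.

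In the late hypochord the RNA of most members was lower and still counted. No member had 0 counts in all 4 late hypochord libraries, 9 had 0 counts in at least 1 of them, and 139 had counts in all 12 libraries. At stage 65, where the libraries were smallest, 10 members in replicate 1 and 19 in replicate 2 had fewer than 3 counts. In all, 52 members stayed at or above 8 CPM in each of the 4 late hypochord libraries, and 31 were under 8 CPM in each. The highest of the late hypochord libraries was stage 61 replicate 1 in 49 members, stage 61 replicate 2 in 31, stage 65 replicate 1 in 20 and stage 65 replicate 2 in 50. No late library held the highest value of most members.

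Few members came near to RNA counted mainly in the early hypochord. Of the 31 members under 8 CPM throughout late hypochord, 11 were also under 8 CPM in each of the 6 coccyx libraries. Not all of these 11 were far higher in early hypochord. The member ranked 35 had 9.97 CPM at stage 56 and 13.5 at stage 58 in hypochord. It had 7.40 CPM in stage 56 coccyx and 6.25 in replicate 2 of stage 65 hypochord. The member ranked 4 had 20.9 CPM at stage 56 and 24.3 at stage 58 in hypochord, 0.405 in replicate 1 of stage 61 and 0 in the 3 other late hypochord libraries. In coccyx it had 1.43 CPM at stage 56, 0.174 at stage 58, 0 and 0.139 at stage 61, and 0 and 0.299 at stage 65. The member ranked 5 was alike, with 19.0 and 22.0 CPM in hypochord of stages 56 and 58, 0.405 and 0 at stage 61 and 0 in both libraries of stage 65, but it reached 2.89 CPM in a stage 65 coccyx. The members ranked 4 and 5 had too few late counts to enter the test of stage 65 against stage 61.

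CPM is not divided by gene length, so levels are not compared between members. By counts, 5 members had an early hypochord mean of at least 1000 CPM, 35 a mean of 100 to 1000 and 110 a mean under 100. Those 5 show how differently members reached their late values. The member ranked 17 had 3075 CPM at stage 56 and 2272 at stage 58 in hypochord, then 364 and 691 at stage 61 and 216 and 77.7 at stage 65. Its coccyx had 1108 CPM at stage 56 and 300 at stage 58, then 145 to 328 in the late libraries. In this gene, hypochord and coccyx were both highest at stage 56.

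The member ranked 16 was higher at stage 58 than at stage 56 in both tissues. Its hypochord had 516 CPM at stage 56 and 2266 at stage 58, then 113 and 301 at stage 61 and 54.3 and 44.8 at stage 65, and its coccyx had 69.2 and 264 at stages 56 and 58. Its late coccyx libraries lay between 109 and 215 CPM. The member ranked 21 ran the other way, with 1667 CPM at stage 56 and 520 at stage 58 in hypochord, then 161 and 48.7 at stage 61 and 70.4 and 189 at stage 65. Its coccyx had 940 CPM at stage 56 and 196 at stage 58, then 40.2 to 245. Both tissues thus again shared the order of the early libraries. The member ranked 147 had 2867 CPM at stage 56 and 2737 at stage 58 in hypochord, then 1863 and 321 in replicates 1 and 2 of stage 61 and 830 and 679 at stage 65. Its 6 coccyx libraries lay between 556 and 917 CPM, so its coccyx varied by less than 2-fold, while its hypochord replicates of stage 61 were far apart.

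The member ranked 31 kept a high value at stage 61. Its hypochord had 2422 CPM at stage 56, 2103 at stage 58, 1333 and 1486 in replicates 1 and 2 of stage 61, and 54.0 and 67.2 at stage 65. In coccyx it had 55.4 CPM at stage 56, 212 at stage 58, 121 and 1011 in replicates 1 and 2 of stage 61, and 7.71 and 3.58 at stage 65. Both tissues were lowest at stage 65, and the second replicate of stage 61 coccyx came near the hypochord values of that stage.

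Since stages 56 and 58 had 1 hypochord library each, their agreement is the only repeat of the early level. In 94 of 150 members (62.7%) the 2 libraries were within 2-fold of each other, against 49.2% of the 3177 genes of at least 8 CPM in both. In 12 members (8%) they were over 4-fold apart, against 18.6% of those genes. The selection itself can favour like values, since the lower early value had to lie above every late hypochord value and members were ranked by a mean of logarithms. The floor of 8 CPM held for the 3177 genes as well. The part of the selection in these shares was not tested. Stage 58 was the higher of the 2 in 71 members. Of the 34 members over 2-fold higher at stage 56 in hypochord, 27 were also higher at stage 56 in coccyx, and of the 22 over 2-fold higher at stage 58, 13 were also higher at stage 58 in coccyx. In all, 93 of 150 members were higher at stage 56 than at stage 58 in coccyx. The differences between stages 58 and 56 correlated between tissues with r = 0.387 over the 150 members and 0.426 over the 3177 genes. This is a description across genes that share their libraries. The replicate number changed along with the stage in both tissues, so the 2 cannot be told apart in these counts and correlations.

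The requirement that both early libraries lie above all late ones left out most genes that met it in 1 of them. Genes of at least 8 CPM above all late hypochord libraries numbered 2352 at stage 56, of which 26.3% were also so at stage 58. They numbered 1941 at stage 58, of which 31.9% were also so at stage 56. Without the stage 56 hypochord library, 1632 genes met all conditions in place of 483, and the 150 with the largest difference held 117 of the members. Without the stage 58 library, 1981 genes met them, and the first 150 held 121 of the members. With CPM corrected by TMM factors, a scaling by the bulk of genes, 662 genes met the conditions, and 127 members were among the first 150.

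The members were present in coccyx as well, which limits the word only in the description of the set. At stage 56, 118 of 150 members had at least 8 CPM in coccyx, and at stage 58, 111 had. Early hypochord had a higher value than coccyx in 136 members at stage 56 and in 145 at stage 58. Both early hypochord libraries lay above both early coccyx libraries in 104 members (69.3%), against 4.97% of the 11729 genes tested. Unlike the members, those genes had no floor of 8 CPM in early hypochord, so the 2 shares are not for like sets. Mean early hypochord CPM was at least 2 times the early coccyx mean in 105 members, at least 4 times in 35 and at least 8 times in 14, and it was below the coccyx mean in 4. The median difference, hypochord minus coccyx, was 1.26 at stage 56 and 1.61 at stage 58 on the log2(CPM + 1) scale, and 0.09 and 0.04 over the 3177 genes. These values follow in part from the choice of members by high early hypochord CPM.

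In the late stages the median difference between the tissues had the opposite sign. The median difference of late hypochord minus late coccyx was -0.47 over the members, with a range from -2.25 to 2.64, and -0.14 over the 3177 genes. The selection can lower this value, since each late hypochord value had to lie below both early ones and members were ranked by that difference. The condition that the late ranges overlap limits it. CPM here was scaled by total counts alone. The parts of the selection and of the scaling in this value were not tested.

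With edgeR's quasi-likelihood test on all 12 libraries and Benjamini-Hochberg adjustment over 11729 genes, 75 genes (0.639%) were higher and 2707 (23.1%) lower in early hypochord than in early coccyx at an adjusted p under 0.05. Of the 150 members 23 were among the higher ones and 0 among the lower ones, with edgeR log2 fold changes from 2.22 to 5.30 for the 23. Since the members were chosen for high values in these very libraries, this count is a description. The lowest adjusted p of a member, 0.0132, was that of the member ranked 75, which had 276 and 524 CPM in hypochord of stages 56 and 58, against 52.0 and 76.6 CPM in coccyx. With the pair of stage and replicate number as a block, edgeR called 182 genes in all, 17 higher and 165 lower. Among the 17 higher ones were 4 members.

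The count moved with single libraries. Without 1 of the early coccyx libraries, stage 56 or stage 58, 3 members were called, among 12 and 14 genes higher in early hypochord. Without the stage 56 hypochord library 56 members were called, among 738 genes higher in early hypochord, against 23 members among 75 genes with all libraries. The members' median log2 fold change was 1.79 with all libraries, against -0.92 over all genes. Leaving out any 1 late library gave 1.78 to 1.90, against -1.15 to -1.05 over all genes. Leaving out 1 early library gave 1.46 to 2.24 over the members. Over all genes the median was then -3.32 without the stage 56 hypochord and -2.94 without the stage 58 hypochord. It was -1.04 without the stage 56 coccyx and -0.87 without the stage 58 coccyx, so the value over all genes moved most with the early hypochord libraries. Scaling by total counts alone left 9 members among 32 genes higher and 3168 called in all, and DESeq2 called 70 members among 376 genes higher and 3937 in all.

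Between late and early coccyx, edgeR called 0 genes higher (0%) and 0 lower (0%) at an adjusted p under 0.05, and DESeq2 called 3 genes and 0 members. At an unadjusted p under 0.05 the members higher in late coccyx were 0 of 150, against 0.656% of genes, and those lower were 6, against 1.30% of genes. Of the members, 29 had a positive and 121 a negative edgeR log2 fold change, with a median of -0.48, against -0.13 over all genes tested. The selection barred genes with both early coccyx libraries above all late ones. It also required the late CPM ranges of the tissues to overlap, which limits the late coccyx values, so these counts are a description. Single libraries moved the fold changes. Without the stage 58 coccyx they were negative in 96 members, with a median of -0.32, against 0.03 over all genes. Without the stage 56 coccyx they were negative in 98 members, with a median of -0.25, against -0.03 over all genes. Leaving out any other single library gave a members' median of -0.52 to -0.37. On the log2(CPM + 1) scale the median late minus early difference in coccyx was -0.44 over the members, with a range from -3.01 to 1.80, and -0.13 over the 3177 genes.

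The early coccyx libraries differed in this respect. The stage 56 library lay above all 4 late coccyx libraries in 64 members (42.7%), against 35.4% of the 3177 genes. The stage 58 library did so in 28 members (18.7%), against 22.1% of those genes. All 4 late coccyx libraries lay above both early ones in 1 member, ranked 38, against 3.50% of the 11729 genes tested.

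**Figure D3:**
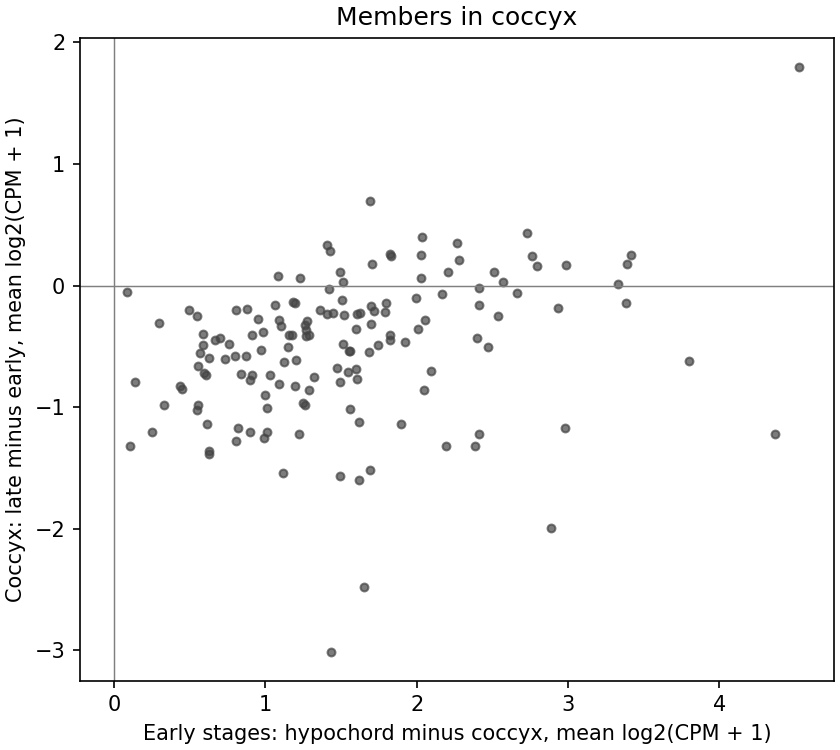
Each point is 1 of the 150 members. The horizontal axis gives the difference of early hypochord minus early coccyx in mean log2(CPM + 1), and the vertical axis the difference of late minus early coccyx on the same scale. All points lie right of 0, between 0.09 and 4.53, most lie below 0 on the vertical axis, and the point at 1.80 is the member ranked 38.

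The order of stages 65 and 61 was not a condition of the selection, and it was tested in the 8 libraries of those stages. There 10959 genes and 148 of the 150 members passed the filter on low counts. The selection did use these values, since each late hypochord value had to lie below both early ones and the late tissue ranges had to overlap. Without replicate 2 of stage 65 hypochord 665 genes met all conditions, and 513 without replicate 1 of it. Without replicates 1 and 2 of stage 61 hypochord 597 and 537 did. The part of the selection in the differences below was not tested. In hypochord, edgeR called 0 of the 10959 genes higher (0%) and 0 lower (0%) at stage 65, and thus 0 members. At an unadjusted p under 0.05, 6 members (4.05%) were higher, against 4.15% of genes, and 20 members (13.5%) were lower, against 5.15% of genes. Without any 1 of the 8 libraries the members' median log2 fold change was -0.67 to -0.37, against -0.64 with all 8.

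The edgeR log2 fold change of stage 65 over 61 in hypochord was positive in 44 members and negative in 104. Its median was -0.64 over the members and -0.01 over all genes tested. With scaling by total counts alone it was positive in 68 members and negative in 80, with a median of -0.06, against 0.40 over all genes, so the split between directions depended on the scaling. Without replicate 2 of stage 61 hypochord, with TMM scaling, it was positive in 59 members and negative in 90, with a median of -0.37, against 0.04 over all genes. Both stage 65 libraries lay above both stage 61 libraries in 27 members (18.2%), against 25.2% of genes, and below them in 32 (21.6%), against 8.68% of genes.

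DESeq2 called 179 genes in this comparison, 68 higher and 111 lower at stage 65, and 7 members, all of them lower. They are ranked 1, 16, 29, 30, 31, 88 and 111. The member ranked 31, with the values given above, had a DESeq2 log2 fold change of -5.08 ± 0.92 (SE) with an adjusted p of 1.21e-05, and an edgeR one of -5.10 ± 1.15 with an adjusted p of 0.343. The estimates were nearly equal, and the tools differed in the call. The lowest edgeR adjusted p of a member, 0.216, was that of the member ranked 30, with an edgeR log2 fold change of -3.61 ± 0.63 (SE). It had 2.55 and 2.61 CPM in stage 65 hypochord, against 27.7 and 19.1 in stage 61 hypochord, and 60.8 and 83.1 at stages 56 and 58.

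In coccyx, edgeR called 0 genes higher (0%) and 0 lower (0%) at stage 65 than at stage 61. At an unadjusted p under 0.05, 1 member was higher, against 0.985% of genes, and 11 members (7.43%) were lower, against 2.41% of genes. The edgeR log2 fold change was positive in 63 and negative in 85 members, with a median of -0.18, against 0.01 over all genes. With scaling by total counts it was positive in 103 and negative in 45, with a median of 0.35, against 0.56 over all genes. Both stage 65 libraries lay above both stage 61 ones in 48 members (32.4%), against 40.8% of genes, and below them in 14 (9.46%), against 4.82%. DESeq2 called 98 genes, 10 higher and 88 lower, and 3 members, ranked 6, 31 and 118, all lower. The members' median was -0.09 without replicate 1 of stage 61 coccyx, against 0.13 over all genes, and -0.11 without replicate 2 of it, against 0.05. Without replicates 1 and 2 of stage 65 coccyx it was -0.19 and -0.22, against -0.01 and -0.05 over all genes. After adjustment, without replicate 1 of stage 61 coccyx edgeR called 6 genes, 1 of them a member, without replicate 1 of stage 61 hypochord 3 genes, and without replicate 2 of it 4 genes.

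Whether the stage difference itself differed between hypochord and coccyx was tested as an interaction. edgeR called 0 genes with a higher value in hypochord (0%) and 0 with a lower one (0%). At an unadjusted p under 0.05, 3 members were on the higher side, against 1.51% of genes, and 5 (3.38%) on the lower side, against 1.72% of genes. With the pair of stage and replicate number as a block, 2 members were on the higher side, beside 244 genes in all, and 13 on the lower side, beside 277 genes. The interaction was negative in 97 members and positive in 51, with a median of -0.41, against -0.02 over all genes. The median was -0.15 without replicate 2 of stage 61 hypochord, against 0.14 over all genes, and -0.25 without replicate 1 of stage 65 coccyx, against -0.01. Without replicate 1 of stage 65 hypochord it was -0.51, against -0.16 over all genes. DESeq2 called 2 genes, and 1 of them was the member ranked 30, with a log2 difference of -4.66 ± 1.02 (SE) and an adjusted p of 0.0277. In stage 65 coccyx that gene had 50.6 and 82.2 CPM, against 37.1 and 9.56 in stage 61 coccyx, so that at stage 65 both hypochord libraries lay below both coccyx libraries, while at stage 61 the tissues overlapped.

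**Figure D4:**
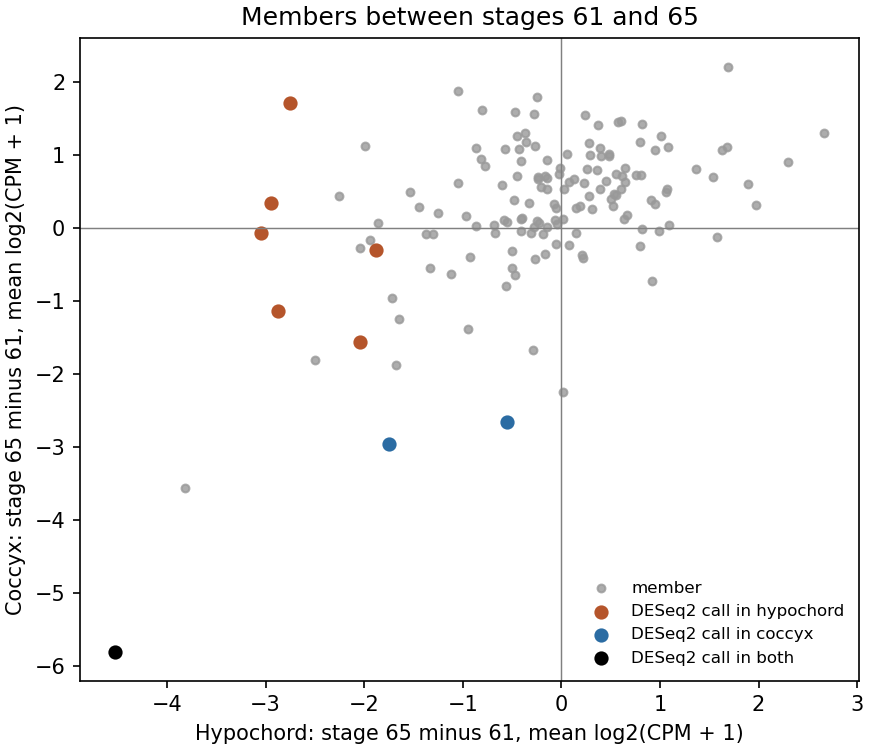
Each point is 1 of the 150 members, with the stage 65 minus 61 difference in mean log2(CPM + 1) in hypochord on the horizontal axis and in coccyx on the vertical axis. Orange, blue and black points are DESeq2 calls in hypochord, coccyx and both. Most points lie near the centre, and the black point at -4.52 and -5.80 is the member ranked 31.

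Members were also counted by the size of their difference between stages 65 and 61. No share over all genes was computed at these sizes, so the counts are a description only. On the log2(CPM + 1) scale 27 members were lower by at least 1 at stage 65 in hypochord and 12 in coccyx, with 8 in both. By at least 2, 10 were lower in hypochord, 5 in coccyx and 2 in both. By at least 1, 15 members were higher in hypochord and 32 in coccyx. The median difference was -0.15 in hypochord and 0.42 in coccyx over the members, against 0.40 and 0.56 over the 3177 genes.

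Differences between the replicates of stage 61 were often of the same sign in both tissues among the members. In hypochord 47 members were over 2-fold higher in replicate 1 than in replicate 2, and 38 of them were also higher in replicate 1 of coccyx. Another 21 were over 2-fold higher in replicate 2, and 14 of them were also higher in replicate 2 of coccyx, where 47 of all 150 members were. The counts use CPM without TMM factors. At stage 61 those factors were 1.01 in hypochord and 1.04 in coccyx for replicate 1, and 0.596 and 0.732 for replicate 2. The part of this scaling in the counts was not tested, and signs were not counted over other genes. The differences of replicate 2 minus replicate 1 correlated between tissues with r = 0.518 over the 150 members and 0.479 over the 3177 genes at stage 61, and with 0.131 and 0.293 at stage 65. These are descriptions across genes that share their libraries.

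The 2 members of the largest late minus early difference show this spread within stage 61. ENSXETG00000008988, ranked 1, had 287 CPM at stage 56 and 142 at stage 58 in hypochord, 3.24 and 80.1 in replicates 1 and 2 of stage 61, and 1.46 and 1.04 at stage 65. Its coccyx had 110 CPM at stage 56 and 5.75 at stage 58, 2.78 and 12.1 at stage 61, and 5.78 and 5.68 at stage 65. Stage 61 thus held 1 hypochord library nearer to the early level and 1 near that of stage 65. The late minus early difference was -4.98. In edgeR its log2 fold change of stage 65 over 61 in hypochord was -5.81 ± 1.76 (SE), with an adjusted p of 0.467, which ran from 0.00248, with DESeq2, to 0.887 over 15 alternatives. Without replicate 2 of stage 61 the log2 fold change was -1.36.

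ENSXETG00000026752, ranked 2, had 107 CPM at stage 56 and 97.9 at stage 58 in hypochord, 1.21 and 88.7 in replicates 1 and 2 of stage 61, and 0 in both libraries of stage 65. Its coccyx had 86.8 CPM at stage 56 and 15.7 at stage 58, 0.992 and 132 in replicates 1 and 2 of stage 61, and 0.482 and 0.299 at stage 65. In both tissues replicate 2 of stage 61 was near or above the early values and replicate 1 far below them. Against a floor of 3 counts per library, a mean of 1.33 CPM, stage 65 hypochord was at least 33.8-fold lower than the stage 61 mean of 45.0 CPM, which rests on replicate 2. The edgeR adjusted p was 0.506, and 0.0574 to 0.892 over 14 alternatives. The late minus early difference in hypochord was -4.78.

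A pair of members was chosen for the largest stage 65 minus 61 difference in hypochord with both stage 65 libraries above both stage 61 ones, so that their direction is fixed by the choice. ENSXETG00000011709, ranked 60, had 37.1 CPM at stage 56 and 33.0 at stage 58 in hypochord, 1.82 and 1.43 at stage 61, and 28.4 and 8.34 at stage 65. Its coccyx had 10.7 and 20.0 CPM at stages 56 and 58, 19.2 and 3.05 at stage 61, and 11.6 and 38.8 at stage 65. In hypochord, replicate 1 of stage 65 was thus close to the early level. Its edgeR log2 fold change of stage 65 over 61 was 3.16 ± 1.05 (SE), with an adjusted p of 0.480, and 0.0811 to 0.887 over the alternatives. Without replicate 1 of stage 65 the log2 fold change was 1.61.

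ENSXETG00000016965, ranked 24, had 29.6 CPM at stage 56 and 33.3 at stage 58 in hypochord, 0.405 and 1.25 at stage 61, and 9.48 and 6.25 at stage 65. Its coccyx had 8.59 and 21.1 CPM at stages 56 and 58, 9.92 and 4.85 at stage 61, and 13.97 and 14.04 at stage 65. Stage 61 was the low point of this gene in hypochord, and its stage 65 values stayed under the early ones. Its edgeR log2 fold change of stage 65 over 61 was 2.65 ± 0.90 (SE), with an adjusted p of 0.480, and 0.154 to 0.887 over the alternatives. Without replicate 2 of stage 61 the log2 fold change was 4.18, and without replicate 1 of it 1.85.

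**Figure D5:**
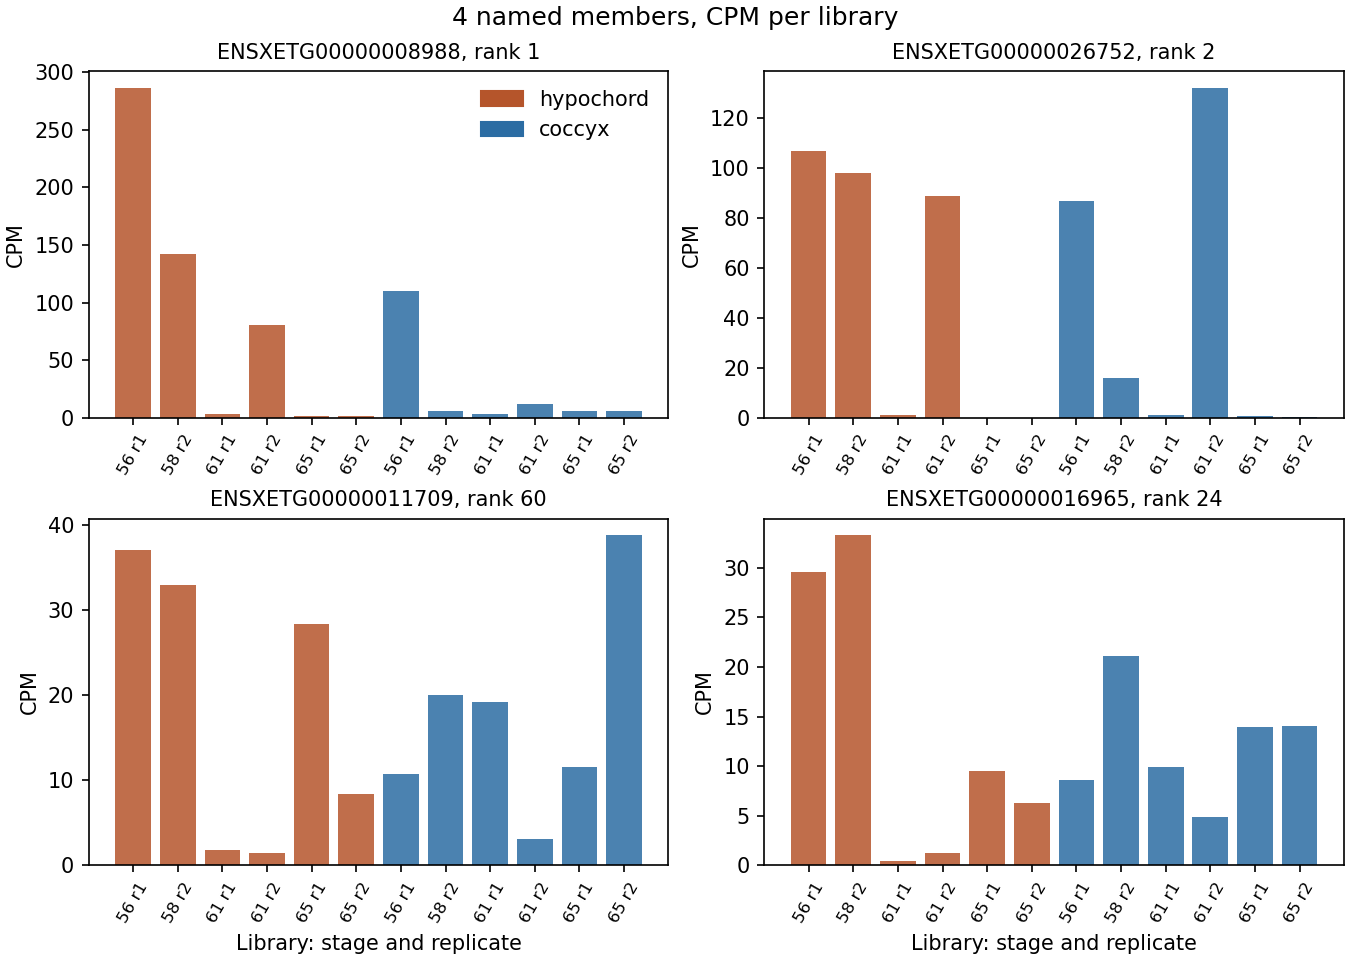
CPM of the 4 members given by identifier, 1 bar per library on linear axes that start at 0, with hypochord libraries in orange at left and coccyx libraries in blue at right. In the top panels replicate 2 of stage 61 stands out at 80.1 and 88.7 CPM in hypochord, and at 132 CPM in coccyx for ENSXETG00000026752. In the bottom panels the stage 61 hypochord bars are the lowest of their tissue, at 0.405 to 1.82 CPM.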

How the data were processed

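RNA of laser-captured hypochord and coccyx was made into cDNA with a SMART-Seq kit, per the labels' protocols. The deposited tables hold whole-number counts per gene, not normalized, per the file headers and their values. FastQC, cutadapt (1.8.1) and HTSeq (0.13.5) appear in the submitters' processing notes. For the aligner, build, annotation and strand setting the entry is "not given in the sources used here", so overlapping or near-identical genes have uncertain counts.

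Groups follow the tissue and stage in the labels. The 6 libraries of replicate 3 were not used: their identifiers ran in steps of 1, and values under 11315 shared identifiers were unrelated to those of the other tables (Spearman's rho 0.0079). Of the identifiers used, 0 were found in the RefSeq gene table of 28858 genes. The members and lists were chosen with earlier results of these data known. The coccyx order in the selection was read without the CPM floor.

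CPM used file totals, and differences used log2(CPM + 1). Tests of the counts used edgeR (4.0.16, under R 4.3.3, with TMM factors of 0.596 to 1.39, filterByExpr, robust quasi-likelihood fit, Benjamini-Hochberg threshold 0.05), with 4 groups and 4 residual degrees of freedom for stages 61 and 65, and 6 groups and 6 degrees for all 12 libraries, where stages 56 and 58 formed 1 group per tissue. All 150 members passed that filter, which they could do through the early hypochord that chose them. Standard errors were approximated by dividing the log2 fold change by the root of its F statistic. DESeq2 1.42.0, other scalings and filters, blocks and left-out libraries were alternatives. The scripts were tested on simulated data.

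The 4 identifiers named are the 2 members with the largest late minus early difference in hypochord, and the 2 with the largest difference of stage 65 over 61 there among those whose stages did not overlap. Other members given by rank were picked after their values were seen.

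Replicate numbers come from the labels, which do not say what they mark. Deviations of replicates correlated between tissues with r = 0.342 at stage 61 and 0.205 at stage 65, and the numbers were taken to pair tissues within a stage, an assumption. Between stages r was 0.0153 in hypochord and -0.148 in coccyx, and no pairing was assumed.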

Additional observations from a re-analysis of the deposited data

Results flagged for a closer look

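Dixon's criterion was applied to 12 sets of 4 late libraries, 8 of the CPM of the 4 named members and 4 of the share of counts and the median CPM of all members, by tissue. In 3 of the 12 a library lay far from the other 3, all in named members. The rate of about 1 in 20 by chance holds for normal values. It does not carry over to CPM near 0, nor to members chosen from these late hypochord values. Each set also mixes stages 61 and 65. All 3 concern replicate 2 of stage 61. ENSXETG00000008988 had 80.1 CPM there in hypochord, against 1.04 to 3.24 in the other late hypochord libraries. ENSXETG00000026752 had 88.7 CPM there in hypochord, against 0 to 1.21, and 132 CPM there in coccyx, against 0.299 to 0.992.

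The member ranked 38 had differences of opposite sign in the tissues. Its late minus early difference in mean log2(CPM + 1) was -2.74 in hypochord and 1.80 in coccyx, where the 4 late libraries had 3.46 to 13.0 CPM and the early ones 0 and 3.31. In edgeR its log2 fold change of late over early coccyx was 1.96 ± 1.35 (SE), with an adjusted p of 0.99991, so the rise in coccyx was not called. The difference between tissues was not tested, and the hypochord direction was fixed by the selection.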

How the results depend on the processing

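Calls at adjusted p under 0.05 depended on the tool. For stage 65 over 61 in hypochord, where edgeR called 0 genes, DESeq2 called 179 with 7 members, a fit without the filter on low counts 49 with 1 member, and the replicate number as a block 1 with 0 members. Leaving out single libraries gave 0 to 6 genes, with 6 without replicate 2 of stage 61 hypochord. In coccyx the same settings gave 98 genes with 3 members, 7 with 1 member, and 1 under the block with 0 members, and left-out libraries gave 0 to 6 genes and 0 to 1 members. For the interaction DESeq2 called 2 genes with 1 member, and the block of pairs 1 gene with 0 members. For late over early coccyx DESeq2 called 3 genes, no filter 1, and left-out libraries 0 to 1, with 1 without the stage 56 or the stage 58 hypochord. For early hypochord over coccyx the block of pairs left 182 genes and 4 members in place of 2782 and 23, total counts 9 members, DESeq2 70 members, and left-out libraries 1363 to 4145 genes and 3 to 56 members. The pairing changed no other call on members.

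Genes that met the selection numbered 483, and 513 to 1981 without single hypochord libraries. The members' median late minus early difference in hypochord was -1.93 with a pseudocount of 5, against -2.28 with 1, since a larger pseudocount shrinks differences of low values. Leaving out early libraries in the selection and in the tests with early stages was chosen after seeing the data. Low counts limit the stage 65 hypochord, where up to 19 members had under 3 counts.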
